A study of Mus with 12 samples.

Results

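Ptgs2, Alox5ap and Lta4h are 3 genes of prostaglandin and leukotriene synthesis that were measured together in cells taken from injured and uninjured mouse kidneys. They were picked by name, for their place in the pathway, with earlier results of these data known. The panel held 768 probes, of which 734 were endogenous genes. Of these genes, 682 gave counts above background in enough libraries to be tested. All 3 genes were among the 682, and each was above the background threshold in 12 of 12 libraries. Ptgs2 (gene ID 19225) encodes prostaglandin-endoperoxide synthase 2, also called cyclooxygenase-2. Alox5ap (gene ID 11690) encodes the 5-lipoxygenase activating protein, FLAP, and Lta4h (gene ID 16993) encodes leukotriene A4 hydrolase.

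Prostaglandins and leukotrienes are both made from arachidonic acid that phospholipases release from membranes. Cyclooxygenases turn it into prostaglandin H2, from which terminal synthases make the individual prostaglandins. On the other branch FLAP, a membrane protein without enzymatic activity of its own, hands arachidonic acid to 5-lipoxygenase, which forms leukotriene A4. Leukotriene A4 hydrolase then makes leukotriene B4, a strong attractant of neutrophils, and is also an aminopeptidase found in many cell types. Ptgs2 is the inducible cyclooxygenase of activated macrophages, and in the kidney it is also present in the thick ascending limb and in interstitial cells. Alox5ap is expressed mostly in myeloid cells.

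The cells were positive for F4/80, the macrophage surface antigen that Adgre1 encodes, and were pulled from digested kidneys with a biotin-labelled antibody and magnetic selection. There were 3 mice lacking Aif-1 (Aif-1-/-, called KO here; mice 17, 23 and 32) and 3 wild-type mice (Aif-1+/+, WT; mice 12, 26 and 36). Aif-1, also called Iba1, is a calcium-binding protein of macrophages that binds actin. In every mouse the left kidney had 30 min of ischemia and was harvested on day 4 (injured), and the right kidney, harvested on the same day, had none (contralateral). The 12 libraries therefore formed 4 groups of 3: KO injured, KO contralateral, WT injured and WT contralateral. No source used here gives the strain, sex or age of the mice, the way Aif-1 was deleted, or the name of the probe panel. The labels call the cells sorted kidney macrophages, and the design text calls each contralateral kidney its own mouse's control.

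RNA was counted with NanoString probes, which carry fluorescent barcodes that are read on single molecules without amplification. Totals ran from 255274 to 904220 counts per library. The table does not mark housekeeping probes, and 20 were taken as such by a list of names. Their geometric mean, a reading of how much RNA a library held, ran from 117.7 to 901 counts, a 7.65-fold span. The positive controls, spiked in at known amounts, spanned 1.18-fold. The most RNA was in both libraries of WT mouse 12 (injured 901, contralateral 879.2) and in the injured kidney of KO mouse 17 (700.6). Negative controls averaged 28.8 to 36.3 counts per library and the highest of them reached 58. The targeted gene, Aif1 (gene ID 11629), had 54 to 95 raw counts in all 12 libraries, with 64 to 93 in KO injured, 54 to 83 in KO contralateral, 74 to 95 in WT injured and 57 to 72 in WT contralateral libraries. The Aif1 counts of the genotypes overlapped on both sides and were near background. No source used here says where on the gene the probe binds, so it checks nothing about the deletion, and directions between genotypes rest on the labels. The macrophage markers Adgre1 and Csf1r were well above background, unlike Aif1. Adgre1 had 230 to 1932 raw counts and Csf1r, the receptor of the macrophage growth factor CSF1, 195 to 1731. Klk1, a kallikrein of kidney tubules, had 1715 to 55136 raw counts, among the RNA of the selected cells. In such bulk RNA, fewer cells of a type and less RNA per cell cannot be told apart. Counts of different probes were not compared with each other, because probes differ in efficiency.

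Ptgs2 was higher in injured than in contralateral kidneys, 2.14-fold on average over both genotypes. In injured kidneys of KO mice 17, 23 and 32 its raw count was 768, 268 and 144, against 76, 58 and 69 in their contralateral kidneys. In injured kidneys of WT mice 12, 26 and 36 it was 248, 116 and 215, against 129, 100 and 105 in their contralateral kidneys. The raw count was thus higher on the injured side in all 6 mice, but the contralateral counts of the 3 KO mice lay near the highest negative control. Scaling to library size with TMM factors gave 329.8, 226 and 253 normalised counts in KO injured kidneys, against 109, 75.7 and 106 in KO contralateral kidneys. The WT injured kidneys had 121, 140.2 and 260 normalised counts, and the WT contralateral kidneys had 69.4, 155 and 97. All KO injured values lay above all KO contralateral values, while the WT groups overlapped through mouse 26, whose kidneys were nearly level.

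**Figure D1:**
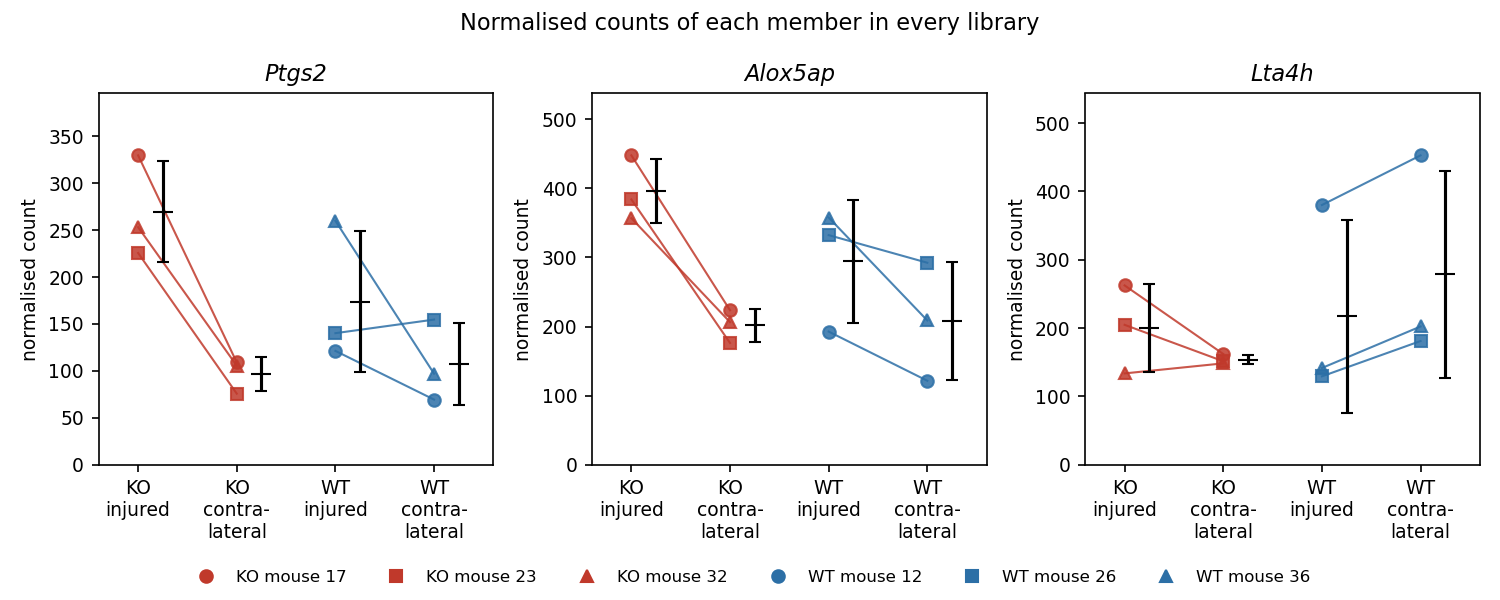
Normalised counts (y axis, TMM scaling, starting at 0) of Ptgs2, Alox5ap and Lta4h in each library, by group from left to right KO injured, KO contralateral, WT injured and WT contralateral; a line joins the kidneys of a mouse, and black marks are the group mean ± SD (n = 3). Ptgs2 in KO injured kidneys averaged 269.6 against 96.7 in KO contralateral kidneys, and the Lta4h values of WT mouse 12 stand above those of every other mouse.

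The group means of Ptgs2 were 269.6 ± 54 normalised counts in KO injured, 96.7 ± 18.3 in KO contralateral, 174 ± 75.2 in WT injured and 107 ± 43.5 in WT contralateral kidneys (SD, n = 3 each). In the edgeR fit across all 682 genes with mouse as a block, the change averaged over genotypes was a log2 fold change of 1.09 ± 0.19 (SE; 95% interval 0.69 to 1.5; adjusted p = 0.00144), higher in 5 of 6 mice. In that comparison 7.92% of the genes tested were called (7.33% higher and 0.587% lower), and Ptgs2 ranked 16 by p. Within KO mice the change was 1.48 ± 0.27 (95% interval 0.90 to 2.06; adjusted p = 0.0031; higher in 3 of 3 mice), where 6.74% of genes were called and 17.2% were higher on the injured side in 3 of 3 KO mice. Within WT mice it was 0.71 ± 0.27 (95% interval 0.14 to 1.28; adjusted p = 0.36; higher in 2 of 3 mice), where 0.733% of genes were called. Over all genes, 12.9% had every KO injured value above every KO contralateral value and 3.67% had the same in WT mice. All 6 injured values lay above all 6 contralateral values in 1.47% of genes, and in none of the 3 members. Without the mouse block the averaged change had an edgeR adjusted p of 0.054 and the change in KO mice one of 0.090. The WT change was called when WT mice were fitted alone (0.65, adjusted p = 0.00088) and without KO mouse 32 (0.64, adjusted p = 0.020), a fit that called 4.25% of genes higher and 2.79% lower in WT mice.

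Alox5ap was also higher in injured kidneys, 1.69-fold on average, and in every mouse. Its raw count in the injured kidneys of KO mice 17, 23 and 32 was 1043, 456 and 203, against 156, 135 and 135 in their contralateral kidneys. In WT mice 12, 26 and 36 the injured kidneys had 394, 275 and 296 raw counts, against 226, 189 and 226 in the contralateral kidneys. All 12 counts were above the highest negative control. Normalised counts were 448, 384 and 357 in KO injured kidneys, against 224, 176 and 206 in KO contralateral kidneys. WT injured kidneys had 193, 332 and 358, and WT contralateral kidneys had 122, 292 and 209. The KO groups did not overlap, and the WT groups did, because WT mice 12 and 26 differed from each other more than either differed between its kidneys.

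The group means of Alox5ap were 396 ± 46.7 normalised counts in KO injured, 202 ± 24 in KO contralateral, 294 ± 88.9 in WT injured and 208 ± 85.4 in WT contralateral kidneys (SD, n = 3 each). The averaged log2 change was 0.76 ± 0.16 (95% interval 0.43 to 1.09; edgeR adjusted p = 0.0043; higher in 6 of 6 mice). Of all genes tested, 8.8% were higher on the injured side in 6 of 6 mice. In KO mice the change was 0.97 ± 0.22 (95% interval 0.50 to 1.44; adjusted p = 0.0107; 3 of 3 mice). In WT mice it was 0.54 ± 0.22 (95% interval 0.08 to 1.01; adjusted p = 0.42; 3 of 3 mice), and 26% of all genes were higher in 3 of 3 WT mice. The averaged call was lost without WT mouse 12 (0.73, adjusted p = 0.055), without KO mouse 23 (0.67, adjusted p = 0.085), without the mouse block (0.74, adjusted p = 0.18) and with positive control scaling (1.10, adjusted p = 0.24). The call in KO mice was lost without KO mouse 23 (0.87, adjusted p = 0.27), without the block (adjusted p = 0.25), with KO mice fitted alone (0.98, adjusted p = 0.078) and with positive control scaling (1.62, adjusted p = 0.19).

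Lta4h showed no change with injury that passed the test. Its raw and TMM-scaled counts in WT mouse 12 were above those of every other mouse on both sides. Per housekeeping count the injured kidney of WT mouse 12 had 225.2, against 227.8 in that of KO mouse 17. The injured kidneys of KO mice 17, 23 and 32 had 611, 243 and 76 raw counts, against 113, 116 and 97 in their contralateral kidneys. Those of WT mice 12, 26 and 36 had 777, 107 and 117, against 842, 117 and 219 in their contralateral kidneys. The 3 highest raw counts were in the 3 libraries with the most RNA. Normalised counts were 262, 205 and 134 in KO injured kidneys, against 162, 151 and 148 in KO contralateral kidneys. WT injured kidneys had 380.1, 129 and 142, and WT contralateral kidneys had 453, 181 and 202. Injured and contralateral values overlapped in both genotypes, and both kidneys of WT mouse 12 were above all other libraries.

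The group means of Lta4h were 200.2 ± 64.5 normalised counts in KO injured, 154 ± 7.16 in KO contralateral, 217 ± 141 in WT injured and 279 ± 151 in WT contralateral kidneys (SD, n = 3 each). The averaged log2 change was -0.03 ± 0.15 (95% interval -0.35 to 0.29; edgeR adjusted p = 0.93; higher in 2 of 6 mice). In KO mice it was 0.35 ± 0.22 (95% interval -0.12 to 0.81; adjusted p = 0.30; higher in 2 of 3 mice). In WT mice it was -0.41 ± 0.21 (95% interval -0.86 to 0.04; adjusted p = 0.70; higher in 0 of 3 mice), and 16.9% of all genes were lower on the injured side in 3 of 3 WT mice. The change in KO mice was called without KO mouse 32 (0.61, adjusted p = 0.016), the mouse whose injured kidney held the least RNA, in a fit whose KO calls took in 24.5% of genes as higher and 29.8% as lower.

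The per-mouse ratios show how far the animals differed. The log2 ratio of Ptgs2, injured over contralateral, was 1.60, 1.58 and 1.26 in KO mice 17, 23 and 32, against 0.81, -0.14 and 1.42 in WT mice 12, 26 and 36. For Alox5ap it was 1.0, 1.12 and 0.79 in the KO mice, against 0.67, 0.18 and 0.78 in the WT mice. For Lta4h it was 0.70, 0.43 and -0.15 in the KO mice, against -0.25, -0.48 and -0.52 in the WT mice. The ratios of Ptgs2 overlapped between genotypes, since WT mouse 36 exceeded KO mouse 32, while every KO ratio of Alox5ap and of Lta4h lay above every WT ratio, as was so for 4.69% of genes. For Alox5ap the nearest ratios were 0.790 in KO mouse 32 and 0.778 in WT mouse 36, and the genotypes overlapped with housekeeping scaling (0.64 to 1.01 in KO mice, 0.16 to 1.05 in WT mice) and per Adgre1 and Csf1r count (-0.13 to 0.42 in KO mice, 0.10 to 0.41 in WT mice). For Lta4h the genotypes stayed apart with housekeeping scaling (0.066 to 0.34 in KO mice, -0.51 to -0.15 in WT mice) and overlapped per Adgre1 and Csf1r count (-0.61 to -0.44 in KO mice, -1.19 to -0.38 in WT mice). The exact two-sided sign-flip permutation test over the 6 ratios gave p = 0.0625 for Ptgs2, 0.03125 for Alox5ap, the smallest it can give, and 0.8125 for Lta4h. Adjusted over the 12 exact tests run on the members, these were 0.24, 0.24 and 1.

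**Figure D2:**
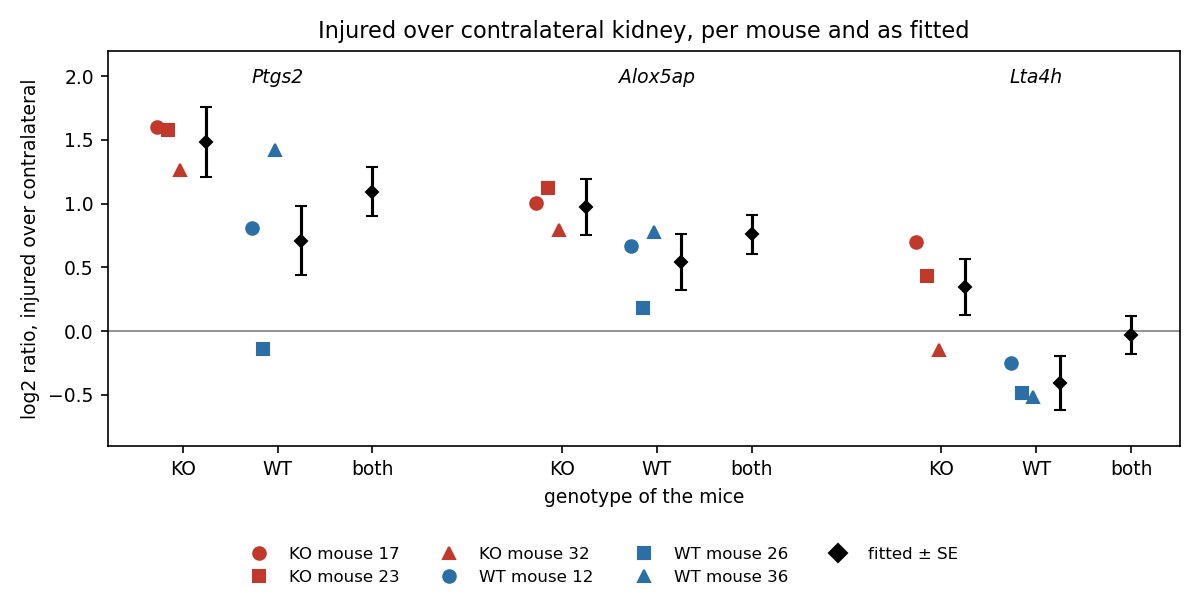
Log2 ratio of normalised counts, injured over contralateral kidney (y axis), of each gene in each mouse, KO mice left of WT mice; black diamonds are the fitted log2 change of each genotype and of both averaged ± SE, and the line at 0 marks equal levels. The Alox5ap ratio is above 0 in 6 of 6 mice, the Ptgs2 ratio in 5 of 6, and the Lta4h ratio in 2 KO mice and 0 WT mice.

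Whether the response to injury differed between genotypes was tested as an interaction. The KO response minus the WT response was 0.77 ± 0.38 on the log2 scale for Ptgs2 (95% interval -0.04 to 1.58; edgeR adjusted p = 0.41), 0.43 ± 0.31 for Alox5ap (95% interval -0.23 to 1.09; adjusted p = 0.44) and 0.76 ± 0.31 for Lta4h (95% interval 0.11 to 1.40; unadjusted p = 0.0247; adjusted p = 0.41). edgeR called 0 of the 682 genes (0%) in this comparison, DESeq2 also called 0, and 75 genes had an unadjusted edgeR p under 0.05. The call of Ptgs2 and Alox5ap in KO mice beside none in WT mice was therefore not a genotype difference that passed the test. The exact permutation test of the 6 ratios between genotypes gave p = 0.2 for Ptgs2 and 0.1 for Alox5ap and Lta4h, and 3 mice against 3 cannot give less than 0.1. Without KO mouse 32, Ptgs2 (0.99, adjusted p = 0.0076) and Lta4h (1.09, adjusted p = 0.0017) were called in the interaction, in a fit that called 23.5% of genes higher and 23.9% lower.

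Levels were also set against each other between genotypes on the same side. In injured kidneys the KO minus WT log2 difference was 0.64 ± 0.36 for Ptgs2 (95% interval -0.15 to 1.43), 0.43 ± 0.33 for Alox5ap (-0.29 to 1.16) and -0.12 ± 0.45 for Lta4h (-1.10 to 0.86). All 3 adjusted p-values were 0.9999 and the KO and WT values overlapped for each gene; 2.64% of genes had all KO injured values above all WT injured values. Without WT mouse 12 the differences of Ptgs2 and Alox5ap were 0.39 and 0.16, and without WT mouse 36 that of Ptgs2 was 1.05, none of them called. edgeR called 0% of genes there, with 5 at an unadjusted p under 0.05, and DESeq2 called 3, none of them a member. In contralateral kidneys Ptgs2 differed by -0.13 ± 0.37 (edgeR adjusted p = 0.84) and Alox5ap by -0.03 ± 0.34 (adjusted p = 0.96). Lta4h was the member with the widest gap, -0.86 ± 0.46 (95% interval -1.86 to 0.13; unadjusted p = 0.084; adjusted p = 0.72), and all 3 KO contralateral values lay below all 3 WT contralateral values, as was so for 3.67% of genes. Without WT mouse 12 the difference was -0.37, and without WT mouse 26 it was -1.34, neither of them called. The exact permutation test over all mice gave p = 0.1, and edgeR called 0% of genes, with 3 at an unadjusted p under 0.05. DESeq2 also called 0.

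Lta4h tracked the amount of RNA more closely than the other members did. Across the 12 libraries the log2 raw count of Lta4h had a Pearson correlation of 0.99 with the log2 housekeeping count, against 0.60 for Ptgs2 and 0.63 for Alox5ap. After TMM scaling the correlation was still 0.94 for Lta4h, and it was -0.09 for Ptgs2 and -0.28 for Alox5ap. The TMM effective library sizes ran from 0.569 to 2.33 of their geometric mean, a narrower span than that of the housekeeping count. Any gene proportional to the housekeeping count therefore keeps a correlation with it after TMM scaling. These libraries share animals and the housekeeping count is itself a part of each library, so the values are a description. Divided by the housekeeping count of its library, Lta4h ran only from 159 to 250.1, a 1.57-fold range, and 4.99% of the kept genes had a narrower one. Ptgs2 ran from 38.3 to 327 on that scale, an 8.53-fold range, and Alox5ap from 67.1 to 450.3, a 6.71-fold range, while the median gene spanned 4.52-fold.

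**Figure D3:**
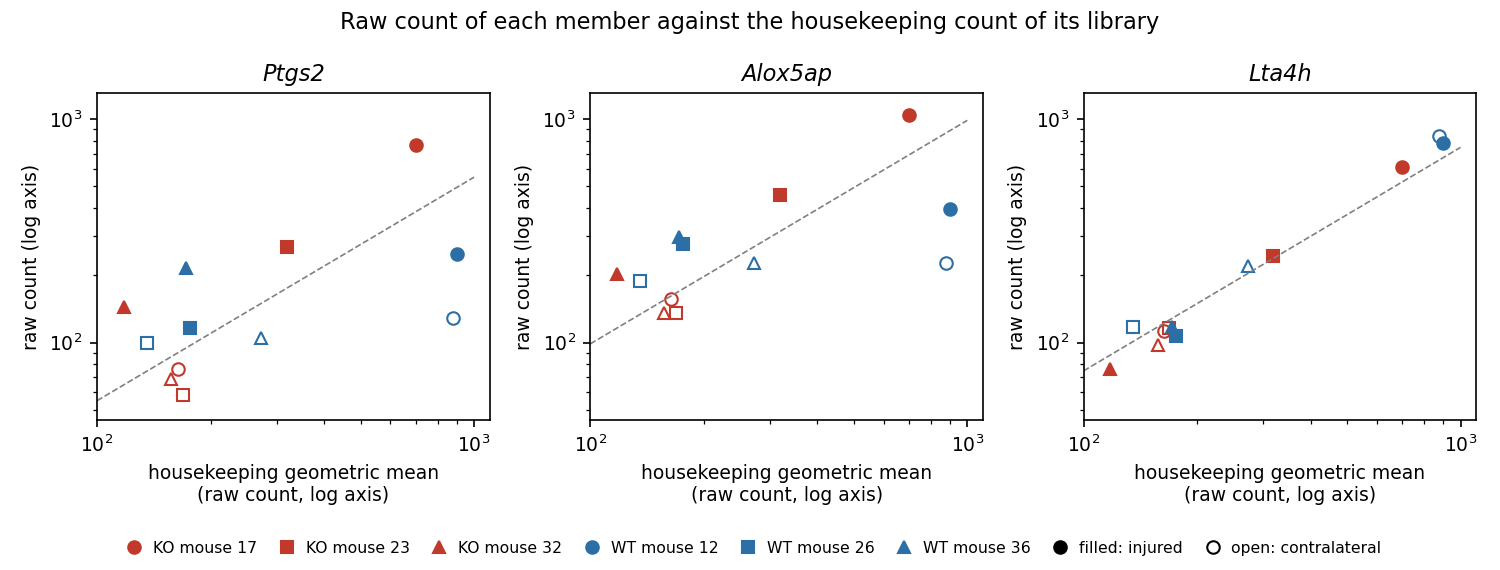
Raw count of each gene (y axis, log scale) against the geometric mean of the housekeeping raw counts of the library (x axis, log scale); filled symbols are injured and open symbols contralateral kidneys, red KO and blue WT mice, and the dashed line marks a constant proportion to the housekeeping count. Lta4h lies close to the line from the least to the most RNA, while the Ptgs2 and Alox5ap counts of WT mouse 12 lie well below it.

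The housekeeping count also differed between the kidneys of a mouse. Injured over contralateral it was 4.28 in KO mouse 17, 1.89 in KO mouse 23 and 0.749 in KO mouse 32, against 1.03, 1.30 and 0.631 in WT mice 12, 26 and 36. The 2 KO mice in which Lta4h was higher on the injured side were those with more RNA there. In WT mice 12 and 26 Lta4h was lower on the injured side although the RNA amount was not. The part of RNA amount in the Lta4h values was not tested beyond these numbers.

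Macrophage transcripts moved with Ptgs2 and Alox5ap. The list of macrophage markers had 21 genes on the panel, and edgeR called 12 of the 21 higher with injury on average, 11 in KO mice and 0 in WT mice, against 7.33%, 6.6% and 0.733% of all genes tested, with median log2 changes of 0.80, 1.03 and 0.56. Their summed normalised count was 10560 to 18570 in KO injured, 4641 to 6527 in KO contralateral, 6002 to 12370 in WT injured and 3984 to 7992 in WT contralateral libraries. Adgre1, the gene of the antigen used for selection, changed by 0.67 ± 0.19 on average (adjusted p = 0.034), and Csf1r by 0.47 ± 0.20 (adjusted p = 0.24). The values of the members were therefore also set against the summed raw counts of Adgre1 and Csf1r, a scaling chosen after the data were seen.

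On that scale Ptgs2 had 0.210, 0.187 and 0.260 counts per macrophage count in injured kidneys of KO mice 17, 23 and 32, against 0.152, 0.130 and 0.141 in their contralateral kidneys. In WT mice 12, 26 and 36 it had 0.261, 0.139 and 0.202 in injured kidneys, against 0.177, 0.143 and 0.120 in contralateral kidneys. It was higher on the injured side in 5 of 6 mice, by a fitted log2 change of 0.53 (adjusted p = 0.079). Alox5ap had 0.285, 0.318 and 0.367 in KO injured kidneys, against 0.312, 0.301 and 0.275 in KO contralateral kidneys. WT injured kidneys had 0.414, 0.330 and 0.278, and WT contralateral kidneys had 0.311, 0.270 and 0.259. Its change on this scale was 0.19 (adjusted p = 0.32), also higher in 5 of 6 mice. Neither gene was called on this scale, where 3.08% of genes were called higher on average and 2.35% in KO mice, with KO changes of 0.63 for Ptgs2 (adjusted p = 0.13) and 0.12 for Alox5ap (adjusted p = 0.66).

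**Figure D4:**
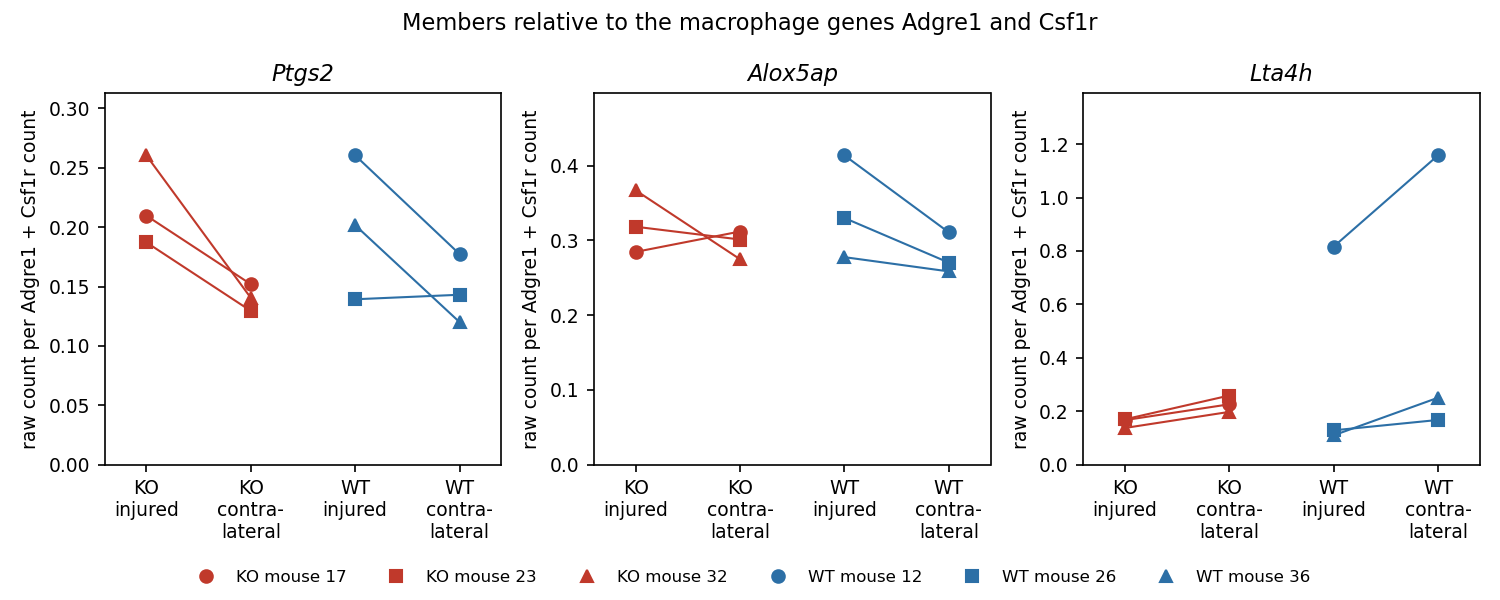
Raw count of each gene divided by the summed raw counts of Adgre1 and Csf1r in the same library (y axis, starting at 0), by group from left to right KO injured, KO contralateral, WT injured and WT contralateral, with a line joining the kidneys of a mouse. Alox5ap stays within 0.259 and 0.414 over the 12 libraries, while Lta4h reaches 0.816 in the injured and 1.16 in the contralateral kidney of WT mouse 12.

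The range of Alox5ap over the 12 libraries was 1.60-fold on that scale, narrower than in all but 1.17% of kept genes, and that of Ptgs2 was 2.17-fold (6.6% of genes were narrower). Lta4h spanned 10.6-fold, against 6.52-fold for the median gene. It was lower on the injured side in 6 of 6 mice, by -0.61 (adjusted p = 0.024), but the median of all genes was itself -0.64 there and 45.5% of genes were called lower, so Lta4h lay close to the median of the panel.

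The genes with the most similar pattern over the 12 libraries differed between the members. For Ptgs2 the highest Pearson correlations of log2 normalised counts were with Tyrobp (0.98), Ctss (0.96), Mpeg1 (0.96), C1qa (0.96) and C1qc (0.95). For Alox5ap they were with C1qa (0.98), Cx3cr1 (0.97), Mpeg1 (0.97), Laptm5 (0.97) and C3ar1 (0.97). For Lta4h they were with Calr and Arf6 (0.98 each), Map2k2 (0.98) and Hdac6 (0.97). Ptgs2 and Alox5ap had a correlation of 0.94 with each other, and Lta4h had -0.25 with Ptgs2 and -0.46 with Alox5ap. All these values come from the same 12 libraries and share their depth and scaling.

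Other cells known to express these genes were checked through their markers. Of all genes tested, edgeR called 7.92% with injury on average, 6.74% in KO mice, 0.733% in WT mice and 0% in the other comparisons. Of the neutrophil list 15 genes were on the panel and 14 were tested, with 0 called in any comparison. Their summed normalised count was 614 to 2231 in KO injured, 1508 to 1868 in KO contralateral, 557 to 2190 in WT injured and 574 to 2266 in WT contralateral libraries. Ly6g, a gene of this list, had only 35 to 90 raw counts, while S100a8, another of its genes, had 73 to 222. Background was not subtracted from these sums, so they also vary with library size and do not measure neutrophil content. Of 16 mast cell, basophil and eosinophil genes 11 were tested, 5 were below the threshold in every library and 0 were called. Their sums were 746 to 1384 in KO injured, 1188 to 1457 in KO contralateral, 899 to 1324 in WT injured and 818 to 1202 in WT contralateral libraries. Cpa3, a mast cell protease, had 4 to 14 raw counts and Ms4a2, a chain of the IgE receptor, 10 to 26, both below the mean of the negative controls. The 5 kidney epithelial genes summed to 6098 to 25570 in KO injured, 12730 to 16990 in KO contralateral, 4425 to 48460 in WT injured and 12750 to 70820 in WT contralateral libraries. On average edgeR called 1 of the 5 higher and 2 lower, against 7.33% and 0.587% of all genes tested. Within the list Egf averaged 2311 normalised counts in KO injured and 7067 in KO contralateral kidneys, and Havcr1 224 and 105. In WT kidneys Egf averaged 7876 ± 10450 and 19520 ± 16180 (SD), and Havcr1 168 and 85.4. Klk1, also of this list, averaged 10530 ± 9454 in KO injured and 6977 ± 1533 in KO contralateral kidneys. In WT kidneys Klk1 averaged 10730 ± 12970 and 15340 ± 12740. No marker was at 0 in all libraries, and the part of epithelial RNA in the member values was not tested.

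Within the wider eicosanoid pathway Ptgs2 and Alox5ap were the only genes called, and both are members chosen with earlier results of these data known. The list of synthesis enzymes, receptors and related lipid mediator genes held 79 names, of which 20 were on the panel and 19 were tested. With injury averaged over genotypes, 2 of the 19 were higher and 0 lower, against 7.33% and 0.587% of all genes tested. In KO mice the count was again 2 and 0, against 6.6% of all genes called higher. With so few genes, these counts are near the background. In WT mice, in the interaction and between genotypes it was 0. Without the 3 members, 16 genes of the list were tested and 0 were called in any comparison. The median log2 change of the list was -0.03 on average against -0.07 for all genes tested, -0.12 against -0.05 in KO mice and 0.16 against 0.08 in WT mice. The untested gene was Ltb4r2, a leukotriene B4 receptor, with 28 to 48 raw counts.

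The partners of the members in the pathway did not pass the test. Ptgs1, the constitutive cyclooxygenase, had an averaged log2 change of 0.05 ± 0.18 (edgeR adjusted p = 0.91). Alox5, the 5-lipoxygenase that FLAP serves, had one of -0.07 ± 0.20 (adjusted p = 0.88), with only 58 to 141 raw counts. Ltb4r1, the high-affinity receptor of leukotriene B4, had -0.34 ± 0.23 (adjusted p = 0.53) at 50 to 70 raw counts, close to background in every library.

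Next after Ptgs2 and Alox5ap by p came genes of lipid signalling and prostaglandin D2. Anxa1, which encodes annexin A1, a protein that limits inflammation, had an averaged change of 0.74 ± 0.24 (edgeR adjusted p = 0.075; higher in 5 of 6 mice). Hpgds, the hematopoietic prostaglandin D synthase, had 0.49 ± 0.18 (adjusted p = 0.156; 6 of 6 mice), and Ptgds, the lipocalin-type synthase of the same product, had -0.41 ± 0.19 (adjusted p = 0.32; higher in 0 of 6 mice). None of the 3 was called. The tally of Ptgds depended on the scaling, while raw Hpgds counts were also higher on the injured side in 6 of 6 mice. Raw Ptgds counts were higher on the injured side in KO mice 17 (127 against 67) and 23 (110 against 82), equal in WT mouse 12 and lower elsewhere. Per housekeeping count Ptgds was higher on the injured side only in WT mouse 36, and Hpgds lower only in KO mouse 17. In KO mice the smallest p-values after Ptgs2 and Alox5ap belonged to Anxa1 (1.09, adjusted p = 0.068; higher in 2 of 3 mice) and Fpr2, a receptor of annexin A1 and of lipoxins (-0.71, adjusted p = 0.145; higher in 1 of 3 mice). Raw Anxa1 counts in the injured kidneys of KO mice 17, 23 and 32 were 776, 214 and 61. Their contralateral kidneys had 47, 68 and 76, near background.

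**Figure D5:**
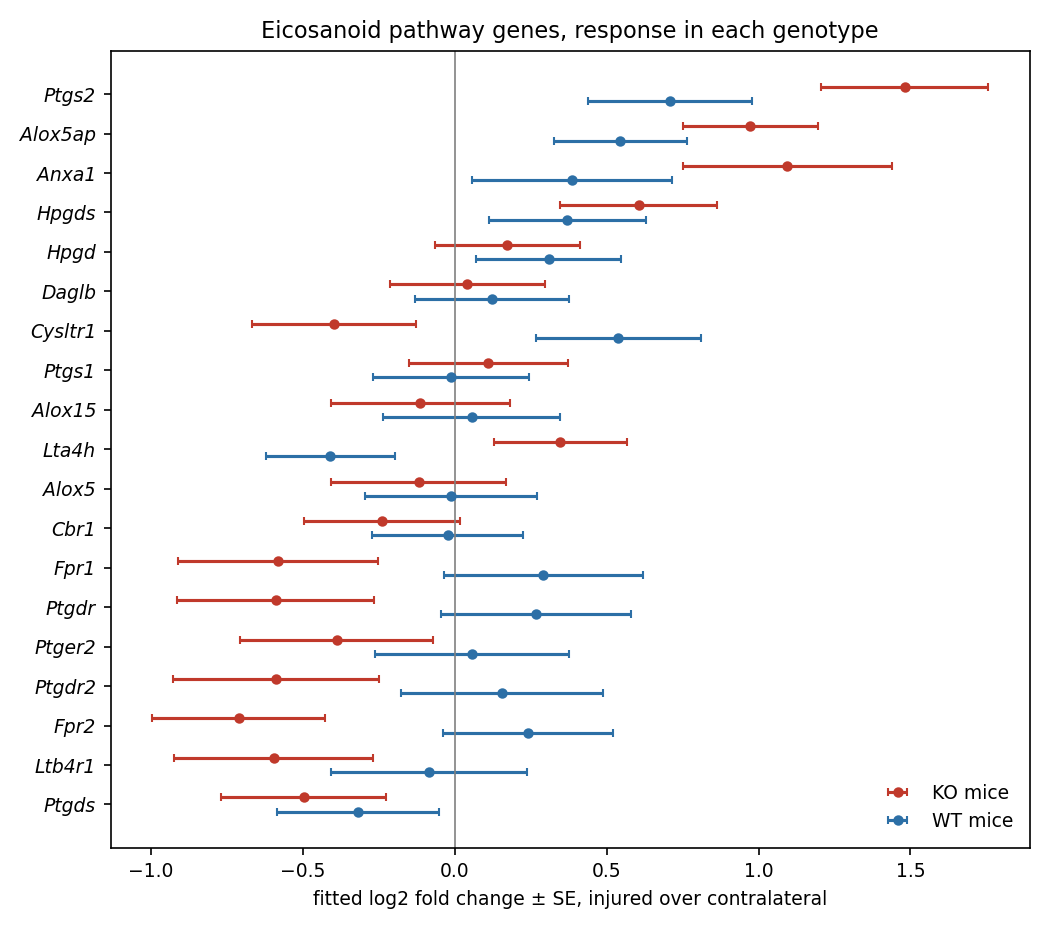
Fitted log2 fold change, injured over contralateral kidney (x axis), of the 19 tested eicosanoid genes, in KO mice (red, upper of each pair) and WT mice (blue, lower); bars are ± SE, the line at 0 marks no change, and genes are ordered by the change averaged over genotypes. The called genes are Ptgs2 (1.48 in KO mice, 0.71 in WT mice) and Alox5ap (0.97 in KO mice, 0.54 in WT mice), both in KO mice and on average but not in WT mice, and Lta4h lies to the right of 0 in KO mice (0.35) and to the left in WT mice (-0.41).

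In the remaining comparisons the smallest p-values of the pathway were not called either. In WT mice they belonged to Ptgs2, Alox5ap, Cysltr1, a cysteinyl leukotriene receptor (0.54, unadjusted p = 0.064, edgeR), and Lta4h. In the interaction they belonged to Lta4h, Cysltr1 (-0.94, unadjusted p = 0.0267), Fpr2 (-0.95, unadjusted p = 0.030) and Ptgs2. In KO mice 17, 23 and 32 Fpr2 had 183, 172 and 111 raw counts in injured and 160, 175 and 118 in contralateral kidneys. Cysltr1 had 183, 116 and 94 against 89, 125 and 89 there. In WT mice 12, 26 and 36 Fpr2 had 113, 184 and 192 against 101, 143 and 157. Cysltr1 had 101, 128 and 135 against 75, 62 and 114 in them. The part of library scaling in these values was not tested. Between KO and WT injured kidneys Cbr1, a carbonyl reductase that acts on prostaglandin E2, came first (-1.11, unadjusted p = 0.093), before Ptgs2, Alox5ap and Hpgds (0.56, unadjusted p = 0.223). Between contralateral kidneys Lta4h came first, before Cysltr1 (0.83, unadjusted p = 0.111), Cbr1 (-0.91, unadjusted p = 0.163) and Fpr2 (0.62, unadjusted p = 0.294). On both sides Cbr1 was highest in WT mouse 12, with 634 normalised counts in the injured and 653 in the contralateral kidney. The kidneys of WT mice 26 and 36 had 139.2 to 188.5, within the 105.5 to 206.4 of the KO mice. The medians of the list and of all genes were -0.17 and -0.02 in the interaction, -0.10 and -0.05 in injured kidneys, and 0.32 and 0.12 in contralateral kidneys.

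Background lowers the size of a fold change in low genes. After the mean of the negative controls was subtracted, the averaged log2 change was 1.46 for Ptgs2, 0.85 for Alox5ap and -0.08 for Lta4h. In KO mice it was 2.07 for Ptgs2 and 1.11 for Alox5ap, and in WT mice it was 0.85 for Ptgs2, 0.58 for Alox5ap and -0.54 for Lta4h. The largest gain was that of Ptgs2, whose contralateral counts stood nearest to background.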

How the data were processed

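The deposited table holds whole-number counts for 768 probes in 12 libraries, per the file, with control probes still in it. Totals differ between libraries and no normalization by the authors is recorded, and they were taken as raw counts. No source used here names the counting software, panel, cartridge or genome build, and no probe sequence or position was used. Groups follow the genotype and injury tags of the labels, and the mouse number in the library name paired kidneys of the same animal. That pairing comes from the design text. Deviations from the group mean correlated at 0.96, 0.88 and 0.72 between the kidneys of WT mice 12, 26 and 36, and at -0.13, 0.37 and -0.49 in KO mice 17, 23 and 32. Replicates are separate mice, and over all kept genes none agreed within sampling noise (lowest chi-square per degree of freedom 5.96).

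Genes were kept where the count reached 53.1 (mean plus 2 SD of the negative controls) in at least 3 libraries. The 734 endogenous genes exclude 20 probes taken as housekeeping by name, which the table does not mark; another choice could move the housekeeping values. Normalised counts are counts per TMM effective library size times 231710, the geometric mean of those sizes. edgeR 4.0.16 in R 4.3.3 fitted the response to injury to all libraries by quasi-likelihood, mouse being a block (4 residual degrees of freedom), and KO against WT within a side on 4 group means. P-values were adjusted by Benjamini-Hochberg over 682 genes, and an adjusted p under 0.05 was called. Exact permutation tests of single values stand beside them. Alternatives were the scaling, the filter, background subtraction, DESeq2 1.42.0, limma 3.58.1 with mouse as a random block, no block, each genotype alone and each mouse left out. Scaling by Adgre1 and Csf1r and leaving out mice 12 and 17 were chosen after seeing the data. The members, gene lists and tests were chosen with earlier results of these data known. Named genes are the members, Aif1, pathway genes that were called or had the 4 smallest p-values in a comparison, and the 5 genes most correlated with each member, of which 1 is not reported here. Other names (markers, Ptgs1, Alox5, Ltb4r1 and Ltb4r2) were added for their role. Of 754 gene probes 744 matched a RefSeq symbol (GRCm38.p6 table), 9 a synonym and 1 none. The number of mice limits the precision. Over all kept genes the spread between mice exceeded counting error. In KO contralateral kidneys, however, the raw counts of the members varied by about as much as counting error alone would give. Their raw mean ± SD there was 67.7 ± 9.07 for Ptgs2, 142 ± 12.1 for Alox5ap and 108.7 ± 10.2 for Lta4h.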

Additional observations from a re-analysis of the deposited data

Results flagged for a closer look

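Lta4h in contralateral kidneys stood apart in WT mouse 12. Its normalised count there was 453, while the next of the 6 contralateral kidneys had 202 and the lowest had 148. The gap to the next value was 0.823 of the whole range, above Dixon's 95% critical value for 6 values. The library held a housekeeping count of 879.2, and per housekeeping count Lta4h reached 250.1 in it, against 161 to 226 in the other contralateral kidneys. Injured kidneys, contralateral kidneys and ratios of the 3 genes made 9 sets of 6 values, of which 1 was marked in this way; chance marks about 1 set in 20. Groups of 3 were not tested.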

How the results depend on the processing

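Of 282 alternative values for the 18 results on the 3 genes, 246 kept their direction and side of the threshold. All values are log2 changes. Without the replicate block, the averaged injury change of Ptgs2 was 1.09, of Alox5ap 0.74 and of Lta4h 0.015, and the KO change was 1.48 for Ptgs2 and 0.97 for Alox5ap; the Ptgs2 and Alox5ap calls were lost, and the block changed no other member's call. Positive control scaling, which put the median of all genes at 0.27 against -0.07, gave averaged changes of 1.10 for Alox5ap and 0.30 for Lta4h and a KO change of 1.62 for Alox5ap. Scaling by Adgre1 and Csf1r, with the median at -0.64, gave averaged changes of 0.53 for Ptgs2, 0.19 for Alox5ap and -0.61 for Lta4h. In KO mice it gave 0.63, 0.12 and -0.52, in the interaction -0.15 for Alox5ap, and KO against WT for Alox5ap -0.075 in injured and 0.081 in contralateral kidneys. With each genotype alone the KO change of Alox5ap was 0.98 and the WT change of Ptgs2 0.65. Without mice 12 and 17 the KO change of Alox5ap was 0.99 (no longer called, adjusted p = 0.079), and KO against WT in injured kidneys was 0.31 for Lta4h. Housekeeping scaling gave 0.085 for Lta4h in injured and 0.091 for Alox5ap in contralateral kidneys, and limma with a random block 0.014 and 0.044. Leaving out each mouse in turn, the averaged change was 0.67 to 0.79 for Alox5ap and -0.17 to 0.065 for Lta4h. The KO change was 0.87 to 1.11 for Alox5ap and 0.16 to 0.61 for Lta4h, and the WT change of Ptgs2 0.35 to 0.99. The interaction was 0.50 to 1.14 for Ptgs2 and 0.66 to 1.09 for Lta4h. KO against WT in injured kidneys was -0.49 to 0.53 for Lta4h, positive without WT mouse 12, 0.39 to 1.05 for Ptgs2 and 0.16 to 0.60 for Alox5ap. In contralateral kidneys it was -1.34 to -0.37 for Lta4h, -0.42 to 0.048 for Ptgs2 and -0.35 to 0.14 for Alox5ap, with Ptgs2 and Alox5ap positive without WT mouse 26. The averaged call of Ptgs2 held in 6 of 6 such fits (0.91 to 1.24), and so did its KO call (1.41 to 1.63). The cause of these changes was not tested.

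Genes called also moved. On average 54 were called, 14 without the replicate block, 331 with Adgre1 and Csf1r scaling (21 higher, 310 lower, against 50 and 4) and 28 to 223 leaving out a mouse, most without KO mouse 32. In KO mice 46 were called, 97 with DESeq2, 3 without the block, 27 with KO mice alone, 406 with Adgre1 and Csf1r scaling (16 higher, 390 lower), 25 without mice 12 and 17 and 14 to 370 leaving out a mouse. In WT mice 5 were called, 2 with DESeq2's size factors, 10 with DESeq2, 0 with housekeeping scaling, 2 with positive control scaling, 0 without the block, 55 alone, 0 with Adgre1 and Csf1r scaling and 0 to 48 leaving out a mouse. The interaction gave 1 with positive control scaling and 0 to 323 leaving out a mouse. DESeq2 called 3 between KO and WT injured kidneys. Ptgs2 in contralateral kidneys and Ltb4r1 everywhere were limited by signal close to background.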

Other observations

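The other eicosanoid probes also differed in how far their raw counts changed between libraries with much and with little RNA. The 3 libraries with the most RNA were both of WT mouse 12 and the injured one of KO mouse 17. These ratios therefore cannot separate the amount of RNA from the animal. Cbr1, for example, had 1296 and 1214 raw counts in WT mouse 12, against 399 in the injured kidney of KO mouse 17. Between the 3 libraries with the most and the 3 with the least RNA the housekeeping count differed 6.04-fold. Anxa1 differed 12.2-fold, Cbr1 10.2-fold, Ptgs1 8.21-fold and Lta4h 7.69-fold, against 3.66-fold for Ptgs2 and 3.16-fold for Alox5ap. Of the 20 probes, 10 differed by less than 2-fold, among them Alox5 (1.58), Cysltr1 (1.47), the formyl peptide receptors Fpr2 (1.07) and Fpr1 (0.932), and Ltb4r1 (1.04). These genes were named after their values were seen.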
